A study of Rattus norvegicus with 11 samples.

Results

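The genes described here are 30 genes of cholesterol and fatty acid synthesis, chosen by name: enzymes of the mevalonate and sterol pathways, regulators of the SREBP transcription factors, and enzymes of fatty acid synthesis. The list was drawn up with earlier results of these data known. Shares over all genes or probe sets are therefore set beside it as description, and are no independent test of it. A gene was taken up where the array's annotation gives a probe set exactly that gene's symbol, and 29 of the 30 were found. They have 48 of the 31042 probe sets tested and are 29 of the 14217 named genes. No probe set carried the symbol Hmgcs1, so no signal is given for that gene, and it enters only the promoter counts. Of the 29 genes, 13 have 1 probe set and 16 have several, and the probe set of highest mean over all arrays stands for a gene unless another is named.

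Whole lungs of Dahl Salt Sensitive rats weighing 250 to 350 g were profiled on 11 Affymetrix arrays. The groups were hypoxia with SU5416 (3 arrays), hypoxia with vehicle (4 arrays) and normoxia with vehicle (4 arrays). Lungs were taken at 3.5 weeks, and inspired oxygen in the hypoxia groups was about 9.5%. SU5416 (SU-5416) blocks the receptors of vascular endothelial growth factor, and with hypoxia it is used to provoke pulmonary hypertension in rats. None of these groups had SU5416 in normoxia, so the drug's effect cannot be told apart from that of its combination with hypoxia. The sorafenib group of the study was not analysed here. The labels do not say that each array is a separate animal, so the p-values measure the spread between arrays, which may be technical. The number of arrays limits the precision.

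Cholesterol is built from acetyl-CoA through mevalonate, isoprenoid diphosphates, squalene and lanosterol. When sterols in the endoplasmic reticulum are scarce, the escort protein SCAP carries the SREBP transcription factors to the Golgi, where they are cleaved and released to the nucleus; INSIG proteins hold SCAP back when sterols are plentiful. SREBP-2 mainly drives the cholesterol genes and SREBP-1c the fatty acid genes. Several of the enzymes, among them SQLE, CYP51, MSMO1, SC5D and SCD, use molecular oxygen as a substrate. In lung, alveolar type II cells make fatty acids and carry cholesterol for surfactant.

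The deposited values are log2 signals, and every difference below is a difference of mean log2 values, fitted across all 31042 probe sets and called at a Benjamini-Hochberg adjusted p below 0.05. The background level, set from bacterial control probe sets, was 5.72 log2. The 8 alveolar type II markers, which mark lung, all had means above that level. Some arrays of normoxia stood apart in RNA quality. For beta-actin the 3′ signal was above the 5′ signal, a common sign of degraded RNA when large, by 2.24 log2 on normoxia array 1 and 1.33 on normoxia array 2, against 0.51 to 0.87 on the others. Differences of the synthesis genes from normoxia are therefore given both over all arrays and with normoxia arrays 1 and 2 left out, whereas the marker lists are given over all arrays. The comparisons of both hypoxia groups with normoxia share the same normoxia arrays.

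In hypoxia with SU5416 the cholesterol enzymes were measured at higher levels than in normoxia, but no single probe set passed the test. All 17 enzymes had a positive difference, with a median of 0.51 log2, and so did 25 of the 29 genes, with a median of 0.27. With normoxia arrays 1 and 2 left out the 17 enzymes were still all positive, but their median was 0.25, and 24 of the 29 genes were positive, with a median of 0.20. Over the brightest probe set of every gene, 47.4% of differences were positive and the median was -0.015. The call rate was 0 of 48 probe sets, against 0.0612% of all probe sets. Of the 29 genes, by their brightest probe sets, 11 had an unadjusted p below 0.05, all of them higher. Of the 48 probe sets 16 did, all of them higher, against 4.82% of all probe sets. In 7 genes every array of hypoxia with SU5416 lay above every normoxia array, and all of these were cholesterol enzymes. That held for 11 of the 48 probe sets, against 4.94% of all probe sets.

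In hypoxia alone most differences from normoxia were positive over all arrays, but fewer were without normoxia arrays 1 and 2. Over all arrays, 26 of the 29 genes had a positive difference with a median of 0.20 log2, against 48.9% and -0.005 over all genes. Among the cholesterol enzymes 15 of 17 were positive, with a median of 0.26. With normoxia arrays 1 and 2 left out, 18 of the 29 genes (median 0.09) and 10 of the 17 cholesterol enzymes (median 0.07) were positive, and the sign turned in 8 genes, 5 of them cholesterol enzymes. None of the 48 probe sets was called, against 0.00644% of all. The 4 genes with an unadjusted p below 0.05, all higher, were Mvd, Sqle, Dhcr7 and Acly (3.33% of all probe sets). Mvd and Sqle were higher on every hypoxia array than on any normoxia array, against 2.05% of all probe sets. Insig2 was lower in the same sense, against 4.08%. Over the 48 probe sets, 6 were higher at an unadjusted p below 0.05, against 3.33% of all, and 2 were lower. The share of all probe sets lower at that level is not given here, so the 2 cannot be set beside it. Without overlap, 2 of the 48 were higher and 2 lower.

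**Figure D1:**
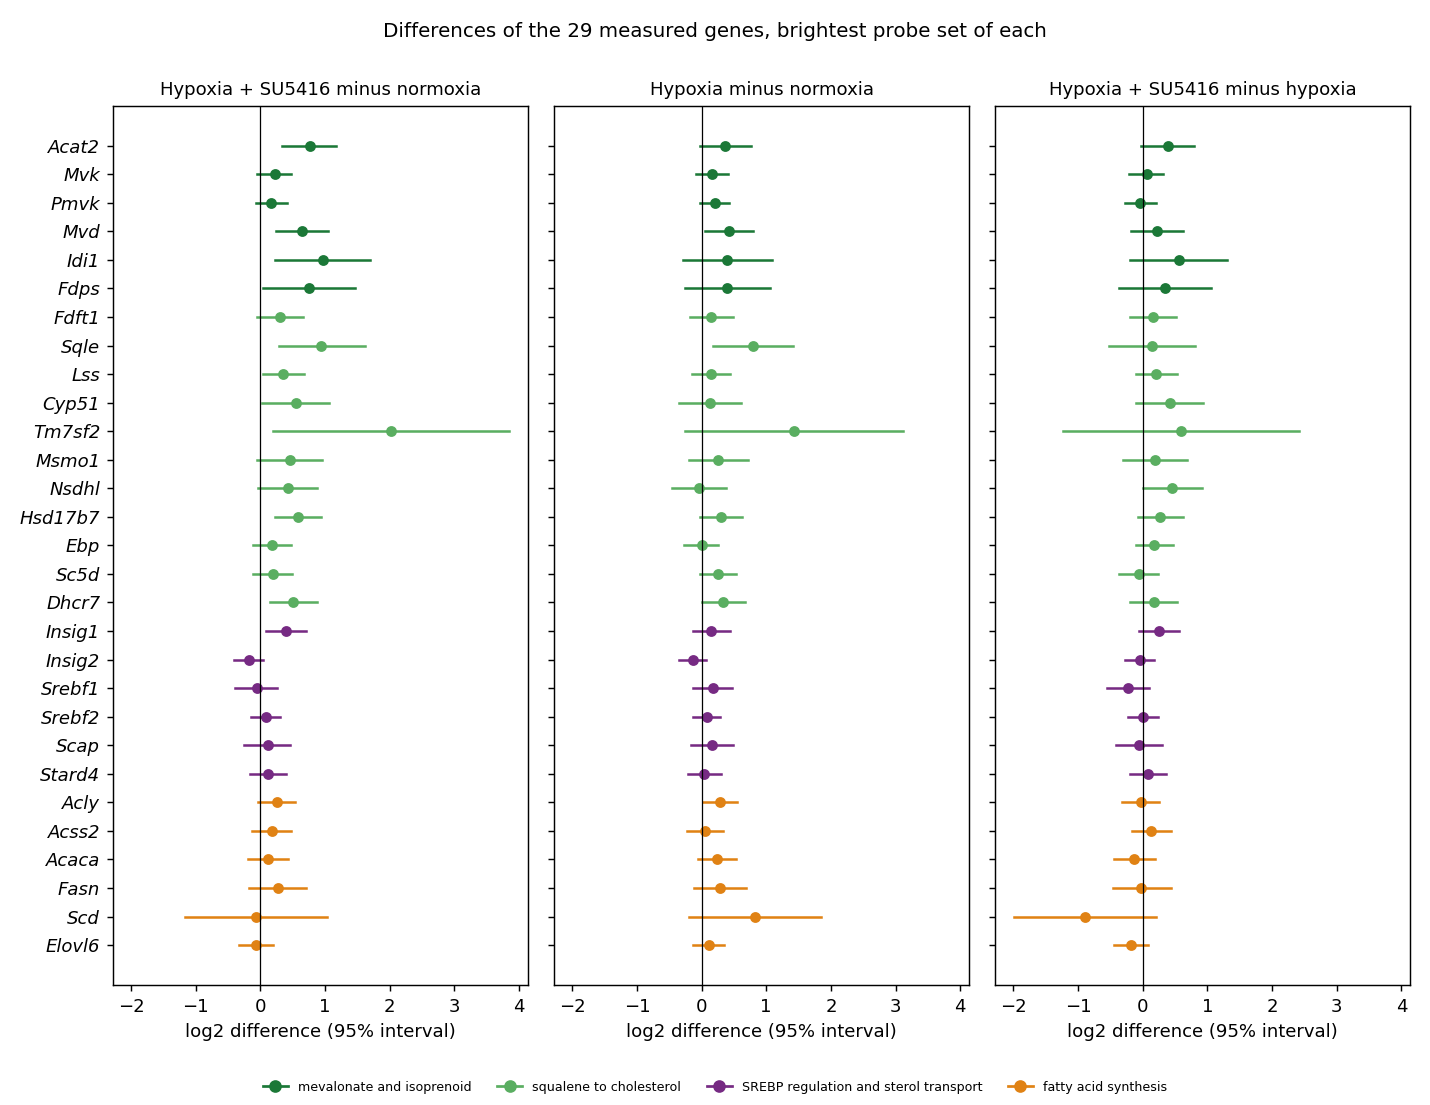
Log2 difference of each of the 29 genes (rows, coloured by role) in hypoxia with SU5416 minus normoxia, hypoxia minus normoxia, and hypoxia with SU5416 minus hypoxia; points are differences of group means from the fit across all probe sets and bars are 95% intervals. All 17 cholesterol enzymes lie to the right of 0 in the left panel, where their median is 0.51, and 0 of the 48 probe sets was called in any panel.

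The mevalonate and isoprenoid enzymes had the largest median difference of the 4 roles in hypoxia with SU5416 against normoxia, 0.70 log2, with 6 of 6 positive, and 0.32 without normoxia arrays 1 and 2. Acat2, the cytosolic thiolase that joins acetyl-CoA units at the start of the pathway, had 9.78, 9.46 and 9.99 log2 in hypoxia with SU5416, 9.22, 9.26, 9.52 and 9.41 in hypoxia, and 8.72, 8.95, 9.43 and 8.84 in normoxia. All arrays of hypoxia with SU5416 were above all normoxia arrays, narrowly so for array 2 against normoxia array 3. The difference was 0.76 ± 0.19 log2 (SE, adjusted p = 0.169, limma), or 1.69-fold, and in hypoxia it was 0.37 ± 0.17 (adjusted p = 0.474). These were 0.60 and 0.22 once normoxia arrays 1 and 2 were left out.

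Mvd, the decarboxylase that makes isopentenyl diphosphate, had 8.00, 7.95 and 8.42 log2 in hypoxia with SU5416, 7.85, 7.69, 8.27 and 7.80 in hypoxia, and 7.20, 7.54, 7.57 and 7.62 in normoxia. The arrays of both hypoxia groups lay above all normoxia arrays. The difference from normoxia was 0.64 ± 0.18 with SU5416 (adjusted p = 0.203) and 0.42 ± 0.16 without it (adjusted p = 0.406), and leaving out normoxia arrays 1 and 2 gave 0.53 and 0.31.

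Idi1, the isomerase of isopentenyl diphosphate, had 10.83, 10.47 and 10.94 log2 in hypoxia with SU5416, 10.06, 10.51, 10.34 and 9.85 in hypoxia, and 8.91, 9.56, 10.32 and 10.35 in normoxia. The normoxia arrays fell into a low pair, arrays 1 and 2, and a high pair, which was within the range of hypoxia. Idi1 differed by 0.96 ± 0.33 in hypoxia with SU5416 (adjusted p = 0.300) and by 0.40 ± 0.31 in hypoxia (adjusted p = 0.665). Without the low pair the values were 0.41 and -0.14, so the sign in hypoxia turned. Its other probe set gave 0.67 and 0.47 over all arrays, and 0.34 and 0.15 without that pair.

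Fdps, which makes farnesyl diphosphate, had 11.18, 10.97 and 11.45 log2 in hypoxia with SU5416, 10.73, 10.88, 10.94 and 10.85 in hypoxia, and 9.52, 10.34, 11.18 and 10.75 in normoxia. Normoxia ran from the lowest value of all to one as high as array 1 of hypoxia with SU5416. The differences from normoxia were 0.75 ± 0.32 (adjusted p = 0.380) and 0.40 ± 0.30 (adjusted p = 0.651), and 0.24 and -0.12 without normoxia arrays 1 and 2.

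The kinases of the pathway differed less. Mvk, which phosphorylates mevalonate, had a difference of 0.22 ± 0.12 log2 in hypoxia with SU5416 and 0.16 ± 0.11 in hypoxia, which became 0.11 and 0.05 without normoxia arrays 1 and 2. Pmvk, which adds the second phosphate, had 0.17 ± 0.11 and 0.20 ± 0.10, and 0.20 and 0.24 without them. Its normoxia arrays lay close together, at 9.00, 9.08, 8.99 and 8.96, against 9.07, 9.19 and 9.26 with SU5416 and 9.02, 9.29, 9.17 and 9.36 in hypoxia, and normoxia array 1 was not its lowest. Of the other probe sets of Mvk, the brighter gave 0.31 and -0.17, or 0.19 and -0.29 without normoxia arrays 1 and 2. The other was below background in all groups.

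**Figure D2:**
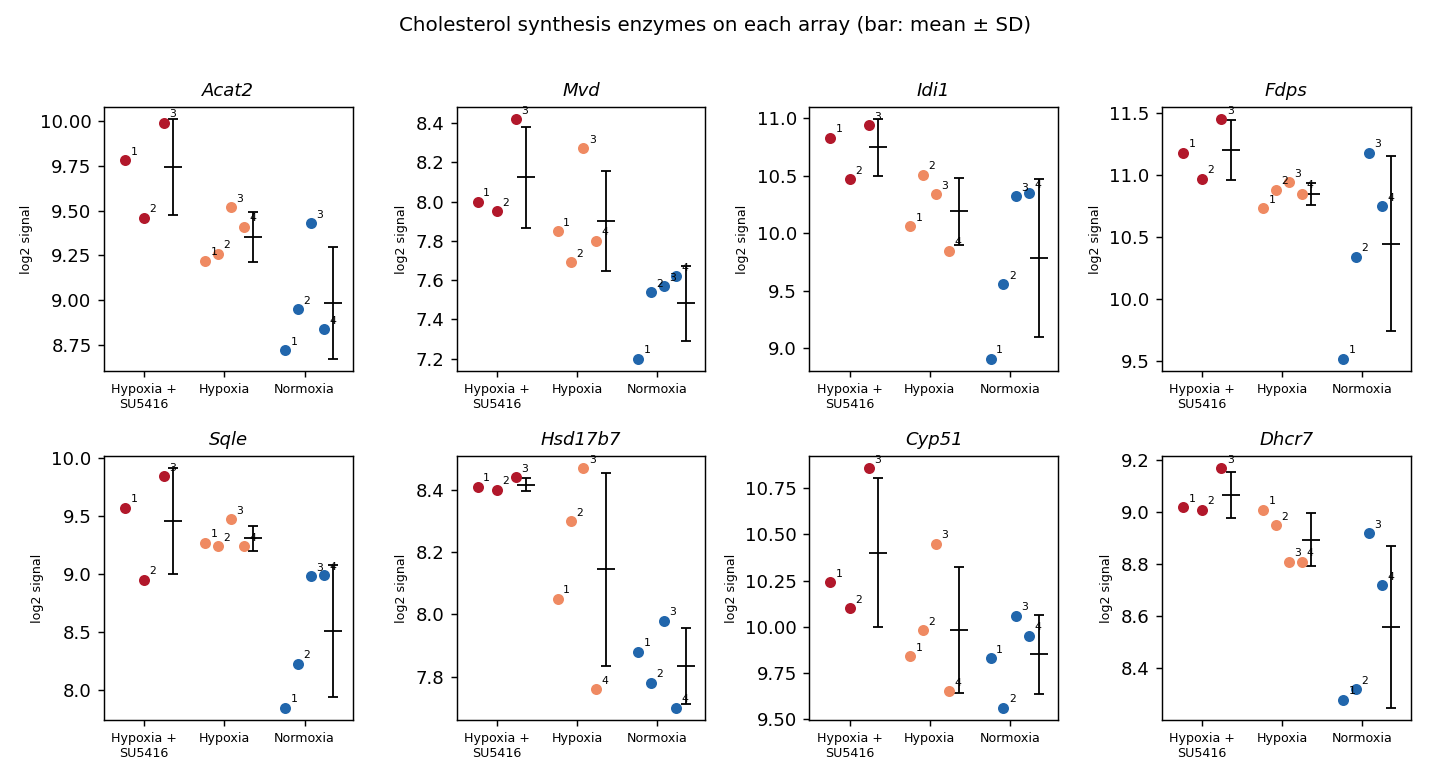
Log2 signal of 8 cholesterol enzymes on each array (points, numbered by array; horizontal axis, groups; vertical axis, log2 signal with its own range per gene), with the mean ± SD of each group beside the points. Array 3 of hypoxia with SU5416 is the highest of its group in every panel, and normoxia array 1 is the lowest array of all for Acat2, Mvd, Idi1, Fdps, Sqle and Dhcr7.

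The start regions of 6 of these enzymes are shown. Their genes had the largest differences in hypoxia with SU5416 among those with a promoter entry and a signal above background in every group. What the windows hold played no part in the choice. RefSeq promoters (GRCr8, 250 bases before to 50 after the start) matched 23 of the 30 genes. Each line gives bases from 200 before to 10 after the start, 5′ to 3′ along the gene; capitals mark CCAAT, the letters bound by NF-Y, and TCACNCC, the core of a sterol element as bound by SREBP, on either strand (ATTGG and GGNGTGA are the same letters on the other strand).
Acat2, chr1:50100640-50100849, plus strand: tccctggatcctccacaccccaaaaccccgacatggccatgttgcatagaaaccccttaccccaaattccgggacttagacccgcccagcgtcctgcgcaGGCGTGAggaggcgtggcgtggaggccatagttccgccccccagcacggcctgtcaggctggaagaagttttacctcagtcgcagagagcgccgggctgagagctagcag
Mvd, chr19:67414965-67415174, minus strand: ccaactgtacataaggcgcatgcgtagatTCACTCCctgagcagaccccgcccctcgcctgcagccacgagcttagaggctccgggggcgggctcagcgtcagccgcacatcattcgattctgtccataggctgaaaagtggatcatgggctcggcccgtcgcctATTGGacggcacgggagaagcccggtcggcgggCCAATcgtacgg
Idi1, chr17:66547515-66547724, minus strand: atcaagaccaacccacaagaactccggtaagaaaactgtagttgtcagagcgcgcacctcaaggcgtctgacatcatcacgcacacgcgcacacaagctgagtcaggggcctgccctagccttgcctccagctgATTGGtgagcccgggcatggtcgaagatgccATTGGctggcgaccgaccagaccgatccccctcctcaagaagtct
Fdps, chr2:176804807-176805016, minus strand: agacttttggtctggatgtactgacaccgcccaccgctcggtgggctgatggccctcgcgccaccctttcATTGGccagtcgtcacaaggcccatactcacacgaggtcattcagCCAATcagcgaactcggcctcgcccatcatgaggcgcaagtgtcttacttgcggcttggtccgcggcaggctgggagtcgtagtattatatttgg
Cyp51, chr4:30991493-30991702, plus strand: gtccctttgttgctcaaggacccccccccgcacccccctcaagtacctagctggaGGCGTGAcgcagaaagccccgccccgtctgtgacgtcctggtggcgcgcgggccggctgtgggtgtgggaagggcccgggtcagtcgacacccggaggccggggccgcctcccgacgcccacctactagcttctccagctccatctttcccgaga
Hsd17b7, chr13:84722745-84722954, minus strand: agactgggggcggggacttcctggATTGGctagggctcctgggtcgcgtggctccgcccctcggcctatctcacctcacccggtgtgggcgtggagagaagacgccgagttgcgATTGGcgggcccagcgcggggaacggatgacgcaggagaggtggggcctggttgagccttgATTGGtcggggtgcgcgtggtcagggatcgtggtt
The Idi1, Fdps and Hsd17b7 windows hold CCAAT without the sterol core, Acat2 and Cyp51 hold the core without CCAAT, and Mvd holds both.

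Over the 300-base promoters, CCAAT occurred in 18 of 23 genes (78.3%) and in 12 of 15 cholesterol enzymes (80.0%). The share was 38.6% of the 11733 genes with a promoter entry and a probe set. A gene with several promoters counted once, where any of them held the letters. The 23 and the 15 include Hmgcs1, which has no probe set and whose promoter holds CCAAT and the GC box. The core TCACNCC occurred in 5 of 23 (21.7%), against 16.8%, and the longer TCACNCCAC in 0 of 23, against 1.20%. The GC box GGGCGG occurred in 19 (82.6%), against 58.6%, and the E-box CACGTG in 3 (13.0%), against 9.35%. All motifs were searched on both strands, and the longer sterol letters contain the shorter. The matches describe letters, not sites in use.

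Among the 11 enzymes from squalene to cholesterol, 11 of 11 had a positive difference in hypoxia with SU5416 against normoxia, with a median of 0.45 log2, and 9 of 11 in hypoxia, with a median of 0.25. Without normoxia arrays 1 and 2 these were 11 of 11 (median 0.25) and 6 of 11 (median 0.07). Sqle, squalene epoxidase, which controls flux into sterols and uses oxygen, had 9.57, 8.95 and 9.84 log2 in hypoxia with SU5416, 9.27, 9.24, 9.47 and 9.24 in hypoxia, and 7.85, 8.23, 8.98 and 8.99 in normoxia. Hypoxia was above normoxia on every array, whereas array 2 of hypoxia with SU5416 lay within the normoxia range. The differences of Sqle were 0.94 ± 0.30 with SU5416 (1.92-fold, adjusted p = 0.261) and 0.79 ± 0.28 in hypoxia (1.73-fold, adjusted p = 0.368). In the fit without normoxia arrays 1 and 2 they were 0.47 and 0.32, and the hypoxia arrays remained above the rest of normoxia.

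Hsd17b7, a ketosteroid reductase of the demethylation steps, had 8.41, 8.40 and 8.44 log2 in hypoxia with SU5416, 8.05, 8.30, 8.47 and 7.76 in hypoxia, and 7.88, 7.78, 7.98 and 7.70 in normoxia. The arrays with SU5416 were nearly equal and all above normoxia, while hypoxia spread across both. Its difference with SU5416 was 0.58 ± 0.16 (adjusted p = 0.201) and 0.57 without normoxia arrays 1 and 2. In hypoxia it was 0.30 ± 0.15 (adjusted p = 0.488), and 0.30 ± 0.19 (adjusted p = 0.464) without those arrays. Its other probe set gave 0.72 ± 0.22 and 0.33 ± 0.20, or 0.78 and 0.39 without these arrays. SAM, the test the study names, called the brightest probe set with SU5416, as it did 1.18% of all probe sets.

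Cyp51, the oxygen-using lanosterol demethylase, had 10.24, 10.10 and 10.86 log2 in hypoxia with SU5416, 9.84, 9.98, 10.45 and 9.65 in hypoxia, and 9.83, 9.56, 10.06 and 9.95 in normoxia. Hypoxia with SU5416 was clear of normoxia, with array 3 its highest, and hypoxia was not. The difference was 0.55 ± 0.23 (adjusted p = 0.376), against 0.13 ± 0.21 in hypoxia, and a second probe set gave 0.49 ± 0.14 (adjusted p = 0.207) and 0.24 ± 0.13. The first probe set gave 0.40 and -0.03 without normoxia arrays 1 and 2, and the second 0.34 and 0.10.

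Dhcr7, which makes cholesterol from 7-dehydrocholesterol, had 9.02, 9.01 and 9.17 log2 in hypoxia with SU5416, 9.01, 8.95, 8.81 and 8.81 in hypoxia, and 8.28, 8.32, 8.92 and 8.72 in normoxia. Again normoxia arrays 1 and 2 were the lowest, and the arrays with SU5416 were above all normoxia arrays. The differences were 0.51 ± 0.16 (adjusted p = 0.263) and 0.33 ± 0.15 (adjusted p = 0.454), and 0.25 and 0.08 without these arrays.

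Lss, which closes squalene epoxide into lanosterol, had 9.16, 9.05 and 9.52 log2 in hypoxia with SU5416, 8.85, 8.92, 9.22 and 9.15 in hypoxia, and 8.89, 8.79, 8.98 and 8.91 in normoxia. It differed from normoxia by 0.35 ± 0.14 with SU5416, without overlap, and by 0.14 ± 0.13 in hypoxia, with overlap. With normoxia arrays 1 and 2 left out the differences of Lss were 0.30 and 0.09. Its other probe set was below background in all groups. Fdft1, squalene synthase, had 0.31 ± 0.16 and 0.15 ± 0.15, and both groups overlapped normoxia; its second probe set gave 0.33 ± 0.18 and 0.13 ± 0.16. The 2 probe sets of Fdft1, once those arrays were left out, gave 0.09 and 0.04 with SU5416, and -0.07 and -0.16 in hypoxia.

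Msmo1, the methylsterol oxidase, and Nsdhl, the dehydrogenase that follows it, had normoxia arrays that fell into a low and a high pair. Msmo1 had 10.51, 10.36 and 10.65 log2 in hypoxia with SU5416, 10.29, 10.36, 10.35 and 10.25 in hypoxia, and 9.60, 9.67, 10.52 and 10.42 in normoxia. Its differences of 0.45 ± 0.22 and 0.26 ± 0.21 became 0.04 and -0.16 without normoxia arrays 1 and 2. Nsdhl had 9.74, 9.96 and 10.06 with SU5416, 9.75, 9.31, 9.32 and 9.46 in hypoxia, and 9.12, 9.24, 9.83 and 9.82 in normoxia. Its difference was 0.42 ± 0.20 with SU5416 and -0.04 ± 0.19 in hypoxia, and 0.09 and -0.37 without those arrays. The dimmer probe set of Nsdhl gave 0.36 ± 0.25 and 0.31 ± 0.23, and 0.49 and 0.43 without them.

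Sc5d, the oxygen-using desaturase of the last steps, has 3 probe sets that differ. The brightest gave 0.19 ± 0.14 in hypoxia with SU5416 and 0.25 ± 0.13 in hypoxia, or 0.06 and 0.13 without normoxia arrays 1 and 2. The dimmest had 8.65, 8.56 and 8.66 log2 with SU5416, 8.04, 8.17, 8.31 and 8.01 in hypoxia, and 7.65, 7.72, 8.17 and 8.01 in normoxia. With SU5416 it lay above every array of both other groups, by 0.74 ± 0.14 over normoxia (adjusted p = 0.105, the lowest of the 48) and by 0.49 ± 0.14 over hypoxia (adjusted p = 0.482). Once normoxia arrays 1 and 2 were left out it stood 0.53 ± 0.13 over normoxia (adjusted p = 0.160). The probe set between them in signal gave 0.35 ± 0.22 over normoxia, and 0.45 without those arrays. The dimmest was called against normoxia when probe sets below the median mean of all were left out (adjusted p = 0.0283, limma), as were 1.38% of those kept. SAM called it against normoxia and against hypoxia, where 1.18% and 1.0% of all probe sets were called. Of those called against hypoxia, 310 were higher and 1 lower.

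Ebp, the sterol isomerase, had differences of 0.18 ± 0.13 and -0.00 ± 0.12, or 0.07 and -0.12 without normoxia arrays 1 and 2. Tm7sf2, a sterol reductase, had 7.07, 5.71 and 7.60 log2 in hypoxia with SU5416, 4.60, 6.46, 7.25 and 6.50 in hypoxia, and 2.90, 5.60, 4.58 and 6.00 in normoxia. Its normoxia mean was below background, so the ratio is a bound: at least 2.11-fold higher with SU5416 (adjusted p = 0.356) and at least 1.40-fold higher in hypoxia (adjusted p = 0.521). Its fitted differences, which are no bounds, were 2.02 and 1.43 log2 over all arrays and 1.5 and 0.91 without normoxia arrays 1 and 2.

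The regulators of the pathway had smaller differences by median. Of the 6, 4 had a positive difference in hypoxia with SU5416 against normoxia (median 0.09 log2) and 5 in hypoxia (median 0.11). Without normoxia arrays 1 and 2 these were 3 of 6 and 2 of 6, each with a median of -0.02. Insig1, the retention protein that is itself a target of SREBP, had 11.12, 10.80 and 11.16 log2 in hypoxia with SU5416, 10.67, 10.86, 10.83 and 10.75 in hypoxia, and 10.50, 10.40, 10.77 and 10.84 in normoxia. The arrays with SU5416 were mostly the highest, but array 2 was below normoxia array 4. The difference was 0.40 ± 0.14 (adjusted p = 0.304) with SU5416, the largest of the regulators, and 0.15 ± 0.13 in hypoxia, or 0.22 and -0.03 without normoxia arrays 1 and 2.

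Insig2, its paralogue, had 8.96, 9.28 and 9.11 log2 in hypoxia with SU5416, 9.20, 9.12, 9.11 and 9.22 in hypoxia, and 9.28, 9.36, 9.24 and 9.34 in normoxia. All hypoxia arrays were below all normoxia arrays, whereas array 2 with SU5416 lay among normoxia. The difference with SU5416 was -0.18 ± 0.10 (adjusted p = 0.490), and in hypoxia it was -0.14 ± 0.09 (adjusted p = 0.613), and -0.17 and -0.13 without normoxia arrays 1 and 2. Its second probe set gave 0.04 with SU5416 and -0.51 in hypoxia, with overlapping arrays, and -0.49 and -1.03 (adjusted p = 0.109) without normoxia arrays 1 and 2, below the rest of normoxia on every array.

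The genes of the transcription factors, by their brightest probe sets, had 95% intervals that held 0 in both comparisons. Srebf2, which encodes SREBP-2, differed by 0.08 ± 0.10 with SU5416 (95% interval -0.15 to 0.30) and 0.08 ± 0.09 in hypoxia (-0.13 to 0.29). Srebf1, which encodes SREBP-1, differed by -0.06 ± 0.15 (-0.39 to 0.26) and 0.17 ± 0.14 (-0.13 to 0.47). They were, without normoxia arrays 1 and 2, 0.12 and 0.13 for Srebf2, and -0.09 and 0.14 for Srebf1. The second probe set of Srebf2, whose mean with SU5416 was below background, gave -0.58 ± 0.47 and -0.40 ± 0.44, and -0.21 and -0.04 without those arrays. That of Srebf1 gave 0.28 ± 0.29 and 0.19 ± 0.27, and -0.15 and -0.24 without them. Array signals report transcripts, not the cleaved nuclear proteins. Scap differed by 0.11 ± 0.16 and 0.16 ± 0.15, and Stard4, a cytosolic carrier of cholesterol, by 0.12 ± 0.12 and 0.04 ± 0.12. Scap gave -0.09 and -0.04, and Stard4 0.06 and -0.02, without normoxia arrays 1 and 2.

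The dimmer probe set of Scap had 7.96, 8.14 and 7.93 log2 with SU5416, 7.75, 7.63, 7.57 and 7.68 in hypoxia, and 7.98, 7.93, 8.39 and 8.28 in normoxia. Here hypoxia was the lowest group, without overlap with either other group, at -0.49 ± 0.12 from normoxia (adjusted p = 0.280), opposite in sign to the brighter probe set. SAM called it in hypoxia against normoxia, as it did 1.88% of all probe sets, and all of those called were lower in hypoxia. Without normoxia arrays 1 and 2 the difference in hypoxia was -0.68 ± 0.11 (adjusted p = 0.0568). With SU5416 this probe set differed from normoxia by -0.13 ± 0.13 over all arrays, and by -0.32 ± 0.11 (adjusted p = 0.277) without those arrays. The dimmest probe set of Stard4 gave -0.10 ± 0.19 with SU5416 and -0.51 ± 0.18 in hypoxia, with arrays that overlapped, and -0.31 and -0.72 (adjusted p = 0.101) without those arrays. The third gave 0.43 ± 0.18 and 0.11 ± 0.17, and 0.27 and -0.05 without them.

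Of the 6 fatty acid genes, 4 had a positive difference from normoxia in hypoxia with SU5416, with a median of 0.15 log2, and 6 in hypoxia, with a median of 0.26. Without normoxia arrays 1 and 2 these counts were the same, and the medians were 0.14 and 0.22. Fasn and Acly had nearly equal differences in both hypoxia groups, Acss2 a larger one with SU5416, and Scd, Acaca and Elovl6 a larger one in hypoxia, and none of these genes was called in hypoxia with SU5416 against hypoxia. Scd, the stearoyl-CoA desaturase, which uses oxygen to make monounsaturated fatty acids, had 9.55, 10.37 and 11.72 log2 in hypoxia with SU5416, 11.26, 10.61, 11.69 and 12.20 in hypoxia, and 10.40, 10.30, 10.85 and 10.93 in normoxia. It had the widest spread of the fatty acid genes, with SDs of 1.09, 0.67 and 0.32 in that order of groups, and the arrays with SU5416 ran from below all others to above all normoxia arrays. Its difference was -0.07 ± 0.49 with SU5416 (95% interval -1.17 to 1.03) and 0.82 ± 0.46 in hypoxia (-0.20 to 1.84, adjusted p = 0.543). With normoxia arrays 1 and 2 left out these were -0.34 and 0.55.

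Fasn, fatty acid synthase, had 11.67, 11.70 and 11.89 log2 in hypoxia with SU5416, 11.54, 11.47, 12.08 and 11.99 in hypoxia, and 11.63, 11.78, 11.11 and 11.42 in normoxia. Hypoxia arrays 3 and 4 were the highest, and hypoxia arrays 1 and 2 lay within the normoxia range. The differences were 0.27 ± 0.20 (adjusted p = 0.619) and 0.28 ± 0.18 (adjusted p = 0.597). Fasn ran opposite to the cholesterol enzymes within normoxia, with arrays 1 and 2 above 3 and 4, and without arrays 1 and 2 its differences were 0.49 and 0.50, free of overlap in both groups. Its second probe set gave 0.32 and 0.52 over all arrays, and 0.51 and 0.71 without these arrays.

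Acly, the lyase that makes cytosolic acetyl-CoA from citrate for both pathways, had 11.63, 11.37 and 11.70 log2 in hypoxia with SU5416, 11.38, 11.64, 11.77 and 11.61 in hypoxia, and 11.15, 11.42, 11.34 and 11.35 in normoxia. In each hypoxia group the lowest array lay below normoxia array 2. The differences were 0.25 ± 0.13 (adjusted p = 0.464) and 0.28 ± 0.12 (adjusted p = 0.436), or 0.22 and 0.26 without normoxia arrays 1 and 2. Acaca, the carboxylase that makes malonyl-CoA, differed by 0.12 ± 0.14 and 0.24 ± 0.13, Acss2, an acetyl-CoA synthetase, by 0.18 ± 0.14 and 0.05 ± 0.13, and Elovl6, a fatty acid elongase, by -0.07 ± 0.12 and 0.11 ± 0.11. Acaca gave 0.06 and 0.19, Acss2 0.21 and 0.08, and Elovl6 -0.06 and 0.12 without normoxia arrays 1 and 2. The second probe set of Acaca gave 0.44 ± 0.28 and 0.34 ± 0.26, and -0.00 and -0.10 without those arrays, and that of Elovl6 gave -0.02 ± 0.23 and -0.17 ± 0.21, and -0.04 and -0.19 without them.

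**Figure D3:**
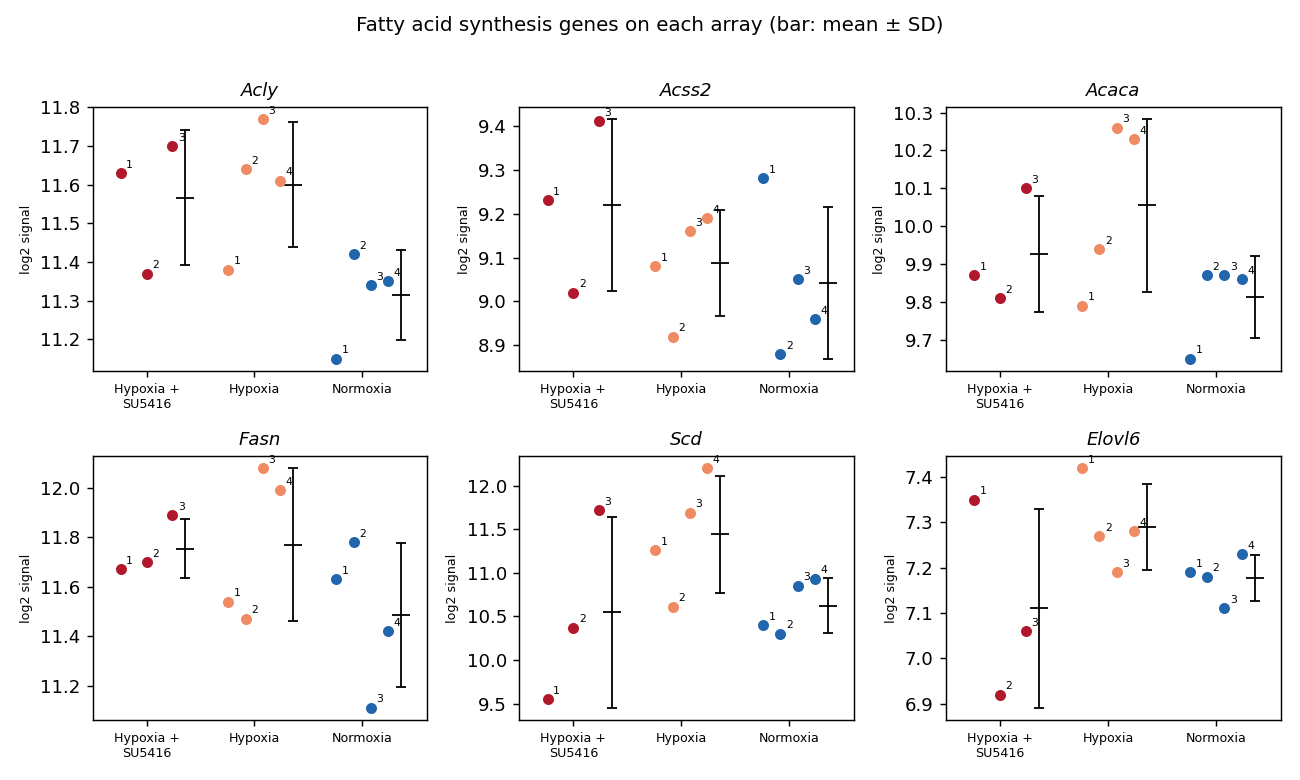
Log2 signal of the 6 fatty acid synthesis genes on each array (points, numbered by array; horizontal axis, groups; vertical axis, log2 signal with its own range per gene), with the mean ± SD of each group beside the points. Scd runs from 9.55 to 11.72 within hypoxia with SU5416, against 10.61 to 12.20 in hypoxia and 10.30 to 10.93 in normoxia.

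The direct comparison of hypoxia with SU5416 against hypoxia tests what the drug was associated with beyond hypoxia, and does not use the normoxia arrays in its means. Its SEs, intervals and p-values do use them, because the spread of a probe set is shared over all 11 arrays. The normoxia SD was the largest of the 3 groups for Fdps (0.71) and Idi1 (0.69), and the smallest for Scd (0.32). No probe set of these genes was called, against 0.0258% of all probe sets. Of the 29 genes 18 were higher with SU5416, with a median of 0.15 log2, against 49.0% of all genes. The cholesterol enzymes were higher in 15 of 17, with a median of 0.21, and the fatty acid genes in 1 of 6, with a median of -0.08. By the brightest probe sets, Nsdhl had an unadjusted p below 0.05, against 4.02% of all probe sets that were higher at that level. By the same probe sets, Fdps was the gene without overlap, at 0.35 ± 0.32, against 6.27% of all probe sets. Over all 48 probe sets, 6 were higher without overlap and 3 had an unadjusted p below 0.05, all higher. Those without overlap were the Fdps probe set and dimmer probe sets of Fdft1, Cyp51, Sc5d, Scap and Stard4.

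Among the cholesterol enzymes the larger differences of this comparison were those of Tm7sf2 (0.59 ± 0.82, 95% interval -1.24 to 2.42), Idi1 (0.56 ± 0.33, -0.19 to 1.30), Nsdhl (0.46 ± 0.20, 0.00 to 0.92), Cyp51 (0.42 ± 0.23, -0.10 to 0.94) and Acat2 (0.39 ± 0.19, -0.03 to 0.80). Sqle differed by 0.15 ± 0.30 (-0.52 to 0.81) and Mvk by 0.06 ± 0.12 (-0.21 to 0.32). Scd was lower by mean, at -0.89 ± 0.49 (-1.99 to 0.21, adjusted p = 0.757). Without array 3 of hypoxia with SU5416 the median of the cholesterol enzymes was 0.12.

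The shifts were uneven between arrays of 1 group. The mean deviation of the 17 cholesterol enzymes from their means over all arrays was 0.31, 0.08 and 0.53 log2 on the arrays of hypoxia with SU5416, -0.09, 0.08, 0.23 and -0.00 in hypoxia, and -0.67, -0.37, -0.03 and -0.06 in normoxia. These means include Tm7sf2, which was below background in normoxia. The median deviations were 0.24, 0.07 and 0.46 with SU5416, -0.06, 0.09, 0.15 and -0.01 in hypoxia, and -0.49, -0.37, 0.01 and -0.09 in normoxia. The same mean over all genes was within 0.04 of 0 on every array. Array 3 of hypoxia with SU5416 held the highest value of 12 of the 17 enzymes, and normoxia array 1 the lowest of 12. The fatty acid genes had mean deviations of -0.16, -0.18 and 0.27 with SU5416, 0.03, -0.07, 0.31 and 0.37 in hypoxia, and -0.17, -0.14, -0.16 and -0.09 in normoxia.

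**Figure D4:**
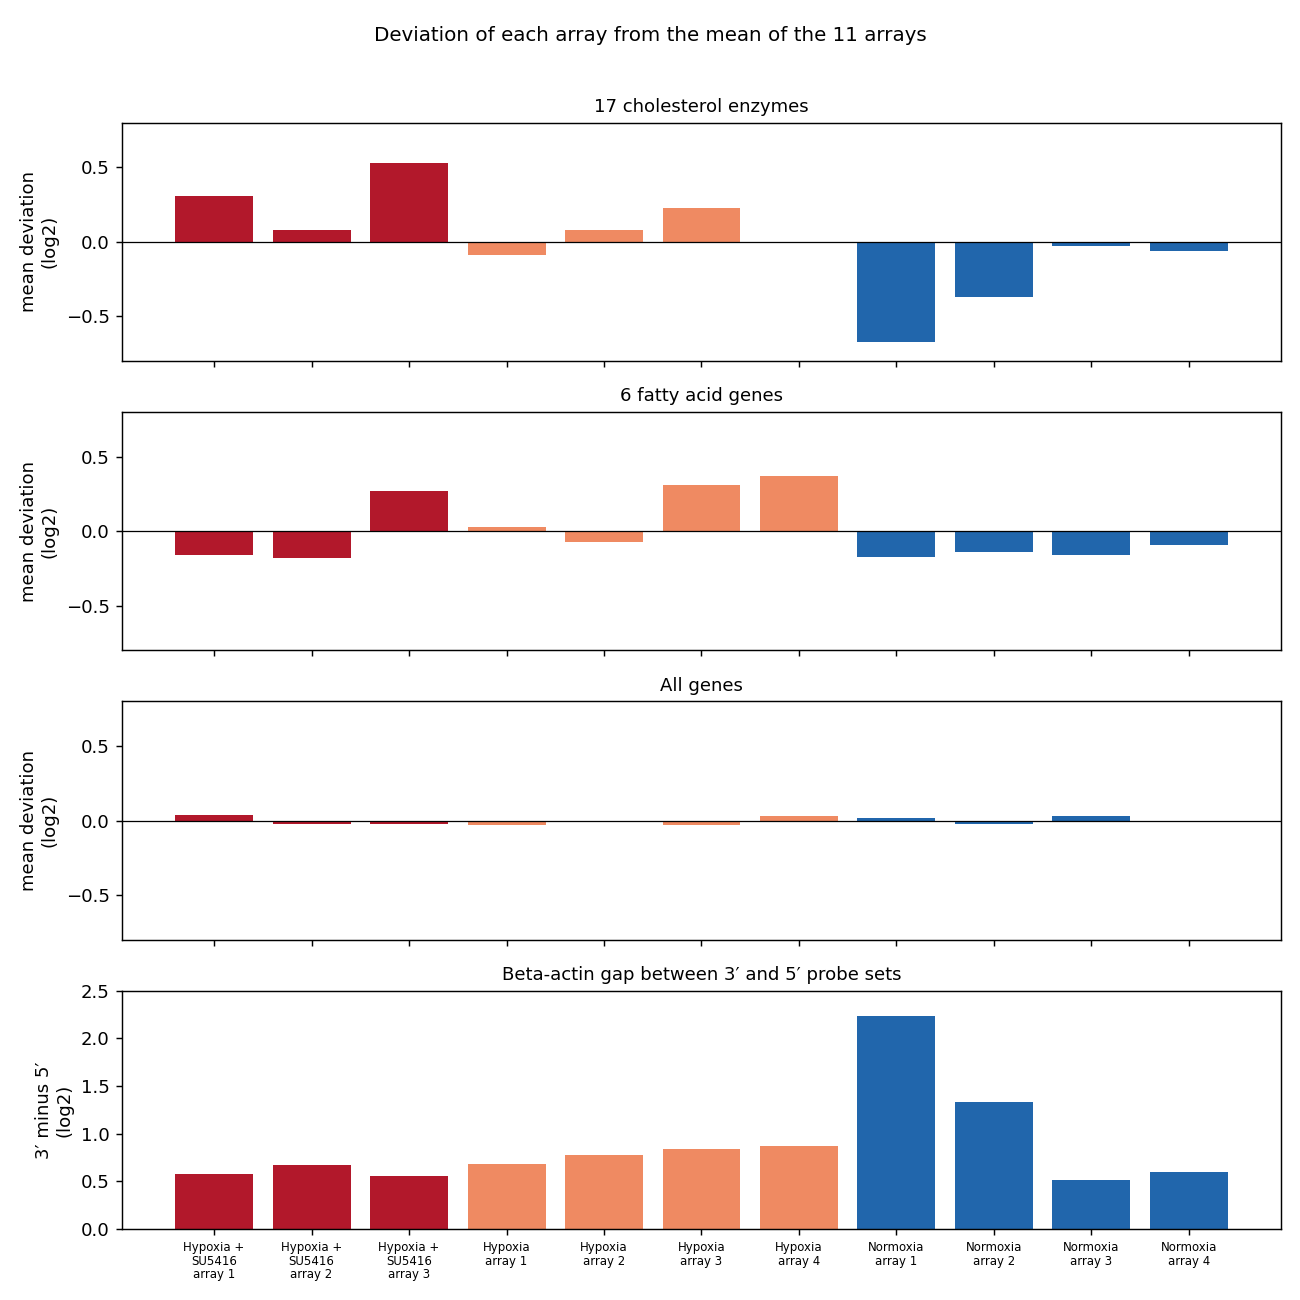
Mean deviation from the mean of the 11 arrays (log2) of the 17 cholesterol enzymes, the 6 fatty acid genes and the brightest probe set of every gene, and the 3′ minus 5′ signal of beta-actin (log2), 1 bar per array. The lowest bars of the cholesterol enzymes, -0.67 and -0.37, are those of normoxia arrays 1 and 2, which also have the widest gaps, 2.24 and 1.33. The 17 enzymes include Tm7sf2, below background in normoxia.

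By the brightest probe sets, normoxia arrays 1 and 2 were both below arrays 3 and 4 in 16 of the 29 genes (55.2%). Over all probe sets, dim ones included, these pairs were so ordered in 24.9%. The means of these pairs were 9.24 and 10.34 for Idi1, 9.93 and 10.96 for Fdps, and 8.04 and 8.98 for Sqle. These are the arrays with the wide beta-actin gap, and the part of RNA quality in the low values was not tested beyond the fits given here. Without them, 8 of the 17 cholesterol enzymes were higher in hypoxia with SU5416 than in normoxia with no overlap, against 14.4% of all probe sets. In hypoxia 3 of 17 were higher in this sense, against 11.8%, and Msmo1 and Nsdhl were lower with no overlap. The share of all probe sets lower in this sense was not counted. The shares given are over all probe sets, whereas the genes are counted by their brightest probe sets, so they are not over like sets. With the beta-actin gap as a covariate over all arrays, the medians of the 17 enzymes were 0.31 with SU5416 and 0.13 in hypoxia. Leaving out normoxia array 1 alone gave 0.41 and 0.14.

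**Figure D5:**
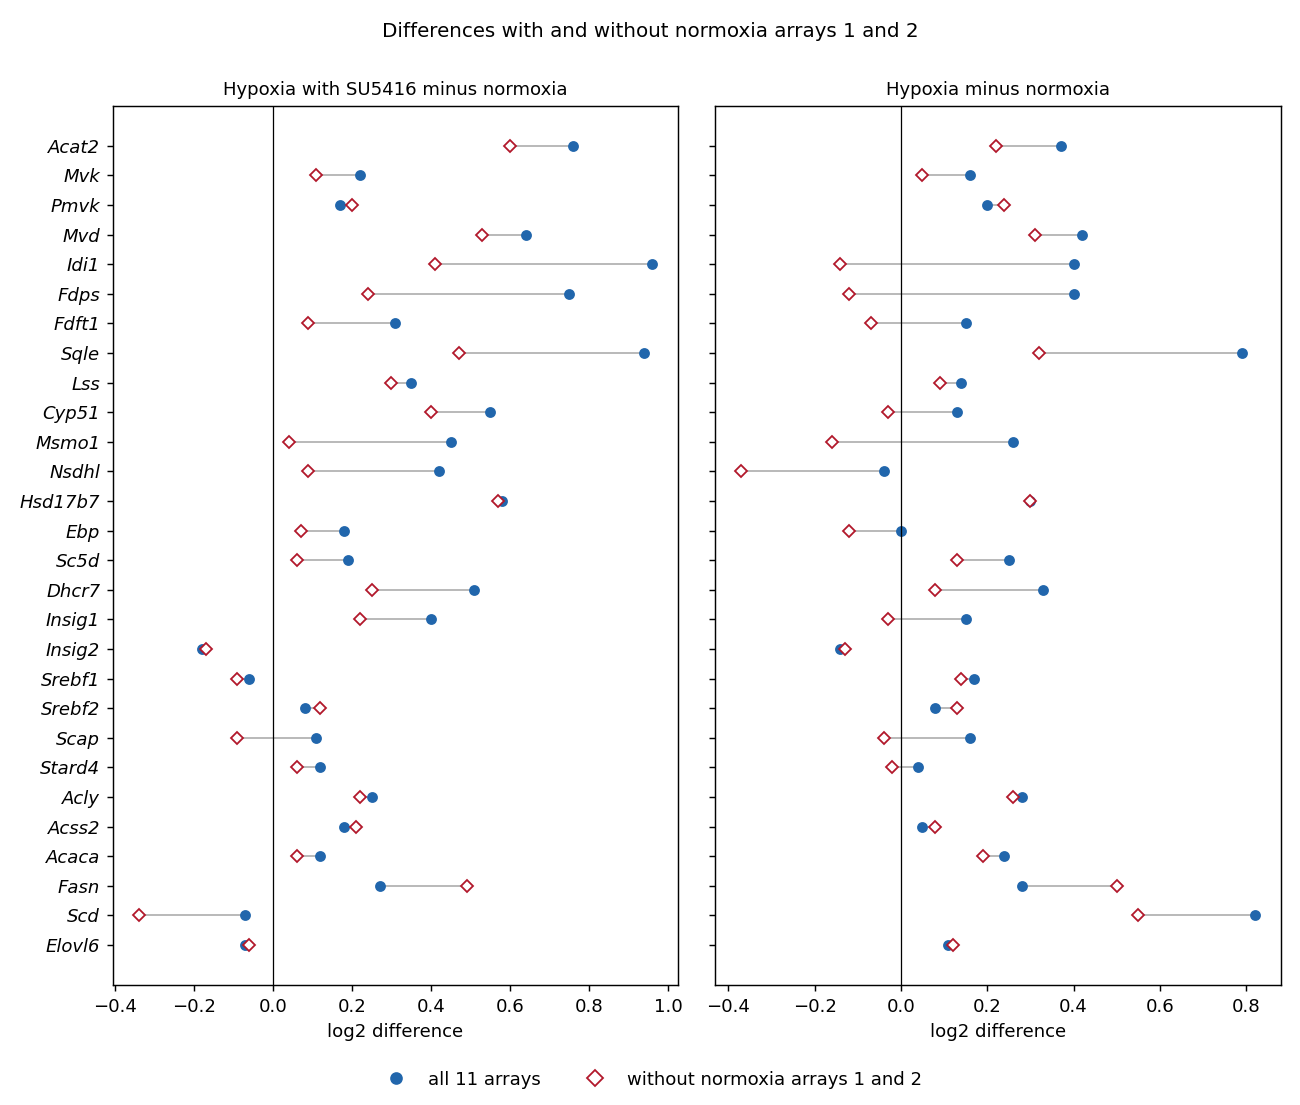
Log2 difference of each gene in hypoxia with SU5416 minus normoxia and in hypoxia minus normoxia, over all 11 arrays (filled points) and without normoxia arrays 1 and 2 (open diamonds); Tm7sf2, below background in normoxia, is left out. Idi1 moves to 0.41 and -0.14 from 0.96 and 0.40, whereas Hsd17b7 stays at 0.57 and 0.30.

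The cholesterol enzymes also varied together within groups. Over deviations from the group means on 11 arrays, their median pairwise Pearson correlation was 0.54, with 123 of 136 pairs above 0, against 0.00 over all genes. Among the 6 fatty acid genes the median was 0.26, between them and the cholesterol enzymes 0.25, and among the 6 regulators -0.05. Over the arrays other than normoxia 1 and 2 these were 0.43, 0.56, 0.36 and 0.14. The points share their arrays, and the values describe these 11 arrays only.

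Other genes of synthesis and SREBP control, of which 21 of 27 listed were measured, gave 0 called in any comparison. In hypoxia with SU5416, 16 of 21 were higher than normoxia, with a median of 0.11 log2. The smallest p belonged to Fabp5, a carrier of fatty acids, which had 12.94, 12.61 and 12.87 log2 in hypoxia with SU5416, 12.43, 12.27, 12.38 and 12.25 in hypoxia, and 10.87, 11.42, 12.03 and 11.73 in normoxia. The groups did not overlap in either comparison with normoxia, nor between the hypoxia groups. Its differences from normoxia were 1.29 ± 0.23 (2.45-fold, adjusted p = 0.0822) and 0.82 ± 0.22 (adjusted p = 0.288), and 0.93 and 0.45 without normoxia arrays 1 and 2.

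Slc25a1, which exports citrate from mitochondria for acetyl-CoA, differed by 0.62 ± 0.21 (adjusted p = 0.280) with SU5416 and 0.44 ± 0.19 in hypoxia, and its normoxia array 1 was the lowest of all at 9.59. Those values were 0.30 and 0.11 without normoxia arrays 1 and 2. Tmem97, a sterol-regulated membrane protein, differed by 0.38 ± 0.17 and 0.02 ± 0.16, or 0.23 and -0.13 without those arrays. Idh1, a cytosolic source of NADPH, differed by 0.18 ± 0.09 and 0.02 ± 0.09, or 0.13 and -0.03 without them.

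Of the genes of sterol uptake, efflux and LXR control, 17 of 18 were measured and 0 were called, and 12 of 17 were higher in hypoxia with SU5416 than in normoxia (median 0.15). Ch25h makes 25-hydroxycholesterol, an oxysterol that restrains SREBP processing, and is strongly expressed by macrophages. It had 10.03, 9.93 and 9.93 log2 in hypoxia with SU5416, 9.49, 9.56, 9.56 and 9.38 in hypoxia, and 9.37, 9.19, 9.45 and 9.66 in normoxia. With SU5416 it stood above all other arrays, by 0.54 ± 0.12 over normoxia (adjusted p = 0.132) and 0.46 ± 0.12 over hypoxia (adjusted p = 0.442). Leaving out normoxia arrays 1 and 2 gave 0.41 over normoxia with SU5416.

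Scarb1, a receptor for high-density lipoprotein, had 9.51, 9.77 and 9.79 log2 in hypoxia with SU5416, 9.62, 9.45, 9.54 and 9.76 in hypoxia, and 9.17, 9.36, 9.18 and 9.05 in normoxia. Both hypoxia groups were above normoxia without overlap, by 0.50 ± 0.12 (adjusted p = 0.161) and 0.40 ± 0.11 (adjusted p = 0.301), and its normoxia arrays 1 and 2 were not its lowest pair: leaving them out gave 0.58 and 0.48. Soat1, which esterifies cholesterol, differed by 0.45 ± 0.19 and 0.24 ± 0.18, or 0.18 and -0.03 without them. Apoc1, an apolipoprotein, was close to or below background in all groups, at 5.84, 4.90 and 3.09 with SU5416, 5.86, 5.78, 5.88 and 6.62 in hypoxia, and 5.07, 5.96, 6.55 and 5.66 in normoxia.

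Whole lung mixes cell types, and in such bulk RNA a change in the number of cells of a type and a change of RNA per cell cannot be told apart. The summed linear signal of 7 macrophage markers was 8386 to 12894 in hypoxia with SU5416, 5737 to 6572 in hypoxia and 3516 to 6507 in normoxia, and 6 of 7 were higher with SU5416 than in normoxia. Ms4a7 was called, at least 13.3-fold higher with SU5416 than in normoxia (adjusted p = 0.00263). Among the arrays with SU5416, array 2 was the lowest and array 3 the highest both for these markers (12132, 8386 and 12894) and for the cholesterol enzymes (0.31, 0.08 and 0.53). The part of macrophages in the result was not tested.

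The 8 alveolar type II markers summed to 63534 to 65043 in hypoxia with SU5416, 55835 to 65093 in hypoxia and 57029 to 73659 in normoxia, with a median difference of 0.02 log2 with SU5416 and -0.10 in hypoxia. The 7 adipocyte markers, 2 of them below background by mean, summed to 1541 to 2309, 1485 to 1732 and 1726 to 2325 in that order of groups. The 5 markers of dividing cells summed to 1319 to 2051, 1150 to 1508 and 1100 to 1745, and 4 of 5 were higher with SU5416 than in normoxia. The 3 hepatocyte markers, with Apoa1 below background, summed to 381 to 428, 437 to 565 and 354 to 870. The 4 endothelial markers summed to 12375 to 14140, 15042 to 16194 and 14633 to 18899, and the 3 airway markers to 10320 to 12620, 10741 to 12026 and 10834 to 17256.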

How the data were processed

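Total RNA from rat lung was hybridised to Affymetrix arrays after biotin labelling, per the labels. The deposited values are log2 signals, 1 per probe set and array, made by the authors with RMA per the submitters' processing notes, which give no version. The 2% trimmed mean of the linear values is 500 on every array and the distributions differ in shape, which quantile normalization would have removed, so how probes were summarised is not settled, whereas the log2 scale is. Low values can then be spread more widely than RMA would leave them. The values were used as deposited.

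Of the array's probe sets, 57 controls were set aside and 31042 tested; 20826 name 1 gene. Names came from the platform annotation. The background level is the 95th percentile of 27 Bacillus subtilis control probe sets, and 18.8% of probe sets had a mean below it. Array medians were 7.80 to 8.01 log2. All 11 arrays entered 1 model with 3 group means (lmFit and eBayes of limma 3.58.1, run in R 4.3.3), which leaves 8 residual degrees of freedom; tests were two-sided, with Benjamini-Hochberg adjustment over all probe sets and a call at an adjusted p below 0.05. Arrays do not overlap where every array of 1 group exceeds every array of the other. The median SE of a difference was 0.202 against normoxia with SU5416 and 0.187 without it. A fold against a group below background is a bound set from the background level. The procedure was tested on simulated data.

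The members, roles, marker lists and further lists were chosen with earlier results of these data known. The text names every member by its brightest probe set, other probe sets where they are given with it, and from each of the other gene lists the 4 genes of smallest p in hypoxia with SU5416 against normoxia; Ms4a7 was called and is named as a marker. The labels number arrays within groups and pair none: correlations of deviations between same-numbered arrays were -0.125 to 0.128. Alternatives were quantile normalization, median centring, leaving out dim probe sets, 2 groups only, trend and robust variance, array weights, the replicate block, the normoxia arrays and covariate given above, each array left out in turn, the mean or each of a gene's probe sets, and SAM from its definition (delta 0.639, minimum fold 1.4). Tables used pandas 2.3.3 and numpy 2.4.6, and figures matplotlib 3.10.9, in Python 3.11.15.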

Additional observations from a re-analysis of the deposited data

Results flagged for a closer look

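In 3 of the 58 groups of 4 arrays examined, 1 array stood apart from the other 3, its gap to the nearest of them being most of the group's range. Chance alone gives this in about 1 of 20 groups, so 3 of 58 is close to what chance gives. Sqle was 9.47 log2 on hypoxia array 3, against 9.24 to 9.27 on the other hypoxia arrays, with a gap of 0.875 of the range. Srebf2 was 11.49 on hypoxia array 4, against 11.59 to 11.61, with a gap of 0.833. Acaca was 9.65 on normoxia array 1, against 9.86 to 9.87, with a gap of 0.96.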

How the results depend on the processing

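With the deposited values, 0 of the 48 probe sets were called in each comparison, and limma called the brightest probe set of no gene in any refit; the lowest adjusted p over the refits was 0.0614, 0.26 and 0.325 in hypoxia with SU5416 minus normoxia, hypoxia minus normoxia and hypoxia with SU5416 minus hypoxia. Leaving out dim probe sets called 1 probe set, the dimmest of Sc5d, with SU5416 against normoxia (0.74, adjusted p = 0.0283), where 1.38% of the remaining probe sets were called over fewer tests. SAM called 2 with SU5416 against normoxia (Sc5d 0.74, Hsd17b7 0.58), against 1.18% of all; 1 in hypoxia against normoxia (the dimmer Scap probe set, -0.49), against 1.88%; and 1 with SU5416 against hypoxia (Sc5d 0.49), against 1.00%. Of all probe sets SAM called, 185 were higher and 181 lower with SU5416 against normoxia. In hypoxia against normoxia these were 0 and 584, and with SU5416 against hypoxia 310 and 1. The replicate number as a block also gave 0 called in each comparison, and its cholesterol medians were 0.50, 0.26 and 0.23. The shorter sterol core was found in promoters of 5 genes and the longer in 0.

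Over the settings, the cholesterol median with SU5416 against normoxia was lowest, 0.25, without normoxia arrays 1 and 2. Leaving out each array in turn gave 0.38 to 0.62 with SU5416 against normoxia, 0.14 to 0.35 in hypoxia and 0.12 to 0.30 with SU5416 against hypoxia.

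The sign turned under at least 1 setting in 4 of the 29 genes with SU5416 against normoxia, in 10 in hypoxia against normoxia and in 8 with SU5416 against hypoxia, and the cause was not tested. With SU5416 against normoxia, Scd was 0.03 with array weights and 0.11 with the replicate block, and Scap was -0.09 both without normoxia arrays 1 and 2 and with the covariate. Leaving out each array in turn, Scd ranged from -0.66 to 0.42, Srebf1 from -0.21 to 0.02, Elovl6 from -0.19 to 0.03 and Scap from -0.01 to 0.19. In hypoxia against normoxia, Nsdhl was 0.05 after median centring. Without normoxia arrays 1 and 2, Idi1 was -0.14, Fdps -0.12, Fdft1 -0.07, Cyp51 -0.03, Msmo1 -0.16, Insig1 -0.03, Scap -0.04 and Stard4 -0.02. Leaving out each array, Nsdhl ranged from -0.17 to 0.07, Cyp51 from -0.03 to 0.24, Stard4 from -0.02 to 0.09 and Acss2 from -0.01 to 0.12. With SU5416 against hypoxia, Fasn was 0.05 with array weights, 0.01 with the replicate block and 0.04 with the covariate. Leaving out each array, Fasn ranged from -0.12 to 0.09, Acly from -0.11 to 0.06, Scap from -0.14 to 0.01, Pmvk from -0.10 to 0.02, Mvk from -0.03 to 0.13, Insig2 from -0.13 to 0.04, Sc5d from -0.15 to 0.05 and Sqle from -0.04 to 0.40.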

Other observations

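Fads1, a fatty acid desaturase of the other synthesis genes, was chosen after its values were seen. It had 11.05, 11.26 and 11.38 log2 in hypoxia with SU5416, 11.52, 11.54, 11.69 and 11.67 in hypoxia, and 11.22, 11.21, 11.17 and 11.16 in normoxia. Hypoxia stood above both other groups without overlap, by 0.42 ± 0.10 over normoxia (adjusted p = 0.253, limma) and 0.44 without normoxia arrays 1 and 2, and hypoxia with SU5416 differed from hypoxia by -0.38 ± 0.10 (adjusted p = 0.442).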
